A study of Mus musculus with 9 samples.

Results

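Axons are built and extended by a set of cytoskeletal genes, and 43 of them are described here out of 50764 genes in a count table of retinal ganglion cells from mice with a crushed optic nerve. The 43 were chosen by gene name and fall into 11 tubulins, 4 stathmins, 11 microtubule proteins, 6 motors, 9 growth cone proteins and 2 intermediate filament proteins. All 43 had enough counts to be tested. The mice were adult males labelled wild type, and every group carried an optic nerve crush of 14 days and an injection of AAV2 into the vitreous (1.5 µL, listed at 14 days). The AAV, a viral vector that infects ganglion cells, carried GFP in the control group (called GFP), Olig2 in the next and Olig3 in the third. Each group holds 3 libraries, and there is no group without crush and none without virus. Ganglion cells were pulled out with beads against CD90.2, a surface protein of these cells, and green cells among them were then chosen under the microscope, between 10 and 20 to a library, so that each library is a pool of few cells. The sources used here do not give the promoter in the vectors or what made cells of the Olig groups green. Separate mice are not named for the libraries within a group, so p-values measure only the spread between these samples, which may be technical.

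Microtubules are hollow polymers of α- and β-tubulin that stiffen the axon shaft and serve as tracks for transport motors. In the growth cone at the axon tip, microtubules push into a meshwork of actin, and proteins such as stathmins, CRMPs and GAP-43 tune the assembly and turnover of both polymers. Several of these genes, among them Gap43, Stmn2, Tuba1a and Tubb3, are widely used as markers of neurons that grow or regrow axons, and adult ganglion cells are known for regrowing poorly after optic nerve injury. Olig2 and Olig3 belong to the basic helix-loop-helix family of transcription factors and bind a short DNA motif called the E-box.

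Libraries held 5355691 to 6979851 counts in genes, so that 3 counts correspond to 0.430 to 0.560 CPM, which is counts scaled to a common library size. Such floors cover counting error only, since the amplified reads carry no molecular identifiers. Olig2 had 114, 97 and 21 counts in the Olig2 libraries against 0 in every GFP library, and Olig3 had 172, 113 and 597 counts in the Olig3 libraries against 13, 0 and 40 in GFP. Olig3 libraries 1 and 3 detected 16188 and 14434 genes, fewer than the 18184 to 21338 of the other libraries. The summed level of 18 ganglion cell markers was 1411, 697 and 872 CPM in the GFP libraries, 241, 545 and 285 CPM in Olig2 and 246, 473 and 218 CPM in Olig3, so every Olig library lay below every GFP library. Rod photoreceptor markers (16 genes) summed to 45841 to 71557 CPM in GFP, 79905 to 185528 CPM in Olig2 and 59683 to 226864 CPM in Olig3, far above the ganglion markers in all 9 libraries, although the label reads ganglion cells. In Olig3 library 3 the ganglion markers Rbpms, Slc17a6, Thy1, Sncg, Pou4f1, Pou4f2 and Pou4f3 were all at 0 counts. The other markers of the list made up its sum of 218 CPM. The list includes Nefl, Nefm and Nefh, which with Nes summed to 596, 156 and 141 CPM in GFP, Olig2 and Olig3 by group means. Of 16 tested ganglion markers, 12 had negative and 4 positive log2 changes for Olig3 against GFP. Isl1, which is also on the list of bipolar cell markers, was higher in both Olig groups than in GFP at an unadjusted p under 0.05.

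The last codons of β-tubulin genes encode an acidic tail that projects from the microtubule wall and is known to vary between isotypes. These coding ends are printed to show how Tubb3, the member with the smallest p in both comparisons with GFP, differs there from its relatives. Each line gives the last 90 coding bases, stop codon included, 5′ to 3′, read from GENCODE M21 transcripts of the mm10 assembly, and capitals mark bases that differ from Tubb5, or have no counterpart in it, in a pairwise alignment.
Tubb5: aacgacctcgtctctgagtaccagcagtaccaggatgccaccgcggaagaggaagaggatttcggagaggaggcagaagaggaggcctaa
Tubb3: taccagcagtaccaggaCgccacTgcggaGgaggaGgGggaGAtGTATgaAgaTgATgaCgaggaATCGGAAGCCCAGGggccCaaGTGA
Tubb2a: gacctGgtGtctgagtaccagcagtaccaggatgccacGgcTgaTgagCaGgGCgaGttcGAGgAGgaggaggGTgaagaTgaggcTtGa
Tubb2b: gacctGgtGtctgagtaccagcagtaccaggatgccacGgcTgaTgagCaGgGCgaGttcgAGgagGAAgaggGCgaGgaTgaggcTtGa
Tubb4b: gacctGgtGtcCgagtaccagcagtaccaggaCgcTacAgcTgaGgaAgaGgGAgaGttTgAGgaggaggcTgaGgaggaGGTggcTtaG
Tubb3 had 35 such bases among the 90 and Tubb2b had 21. Over the whole coding sequence Tubb3 was 81.2% identical to Tubb5, its lowest value among the β-tubulins here, and 85.7% to Tubb6, its highest. Tubb2a and Tubb2b were 96.5% identical to each other. The ends of Tubb4a and Tubb6 are not printed.

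Of all 50-base windows in the Tuba1a transcript, 72.9% also occurred in transcripts of other genes, with 73.8% for Tuba1b, 61.0% for Tuba1c, 56.7% for Actg1, 50.9% for Tubb4b, 49.6% for Tubb2a, 39.3% for Tubb2b and 36.5% for Stmn1. Counts of these genes are uncertain, since reads from such windows could be split or dropped. Tubb3, Tubb6, Gap43 and Stmn2 had no shared window, and neither did 21 other members. Exons of 12 members overlap those of another gene in the annotation, among them Cfl1 with Snx32 (16.5% of its exon bases) and Ina with Nt5c2 (14.1%).

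None of the 43 genes passed the test in any comparison. With edgeR's quasi-likelihood test and an adjusted p under 0.05, 0 of 43 were called for Olig2 against GFP, where 0.0513% of all tested genes were called, 0 of 43 for Olig3 against GFP (0.205% of all tested genes) and 0 of 43 for Olig3 against Olig2 (0.0384%). DESeq2 called 0, 5 and 0 members in these comparisons, beside 0.577%, 3.22% and 0.525% of all tested genes, and limma-voom called 0 in each. At an unadjusted p under 0.05, 4 members were lower and 0 higher in Olig2 than in GFP, which is 9.30% of the members against 4.68% of all tested genes (2.08% lower). In Olig3 against GFP, 15 were lower and 2 higher, 39.5% of the members against 12.1% of all tested genes. Lower members made up 34.9% of the 43 and lower genes 6.37% of all tested genes, while higher genes were 5.76%.

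All 3 Olig3 libraries lay below all 3 GFP libraries for 13 members and above them for 2 (Tuba4a and Map4), together 34.9% of the members against 17.2% of all tested genes (10.0% lower and 7.18% higher). For Olig2 against GFP the libraries did not overlap for 6 members, all lower, or 14.0% against 16.8% of all tested genes (8.35% lower). The median log2 change of the 43 was -0.20 for Olig2 against GFP, beside 0.06 for all tested genes, and -0.69 for Olig3 against GFP, beside -0.18. Both comparisons use the same GFP libraries. Before scaling, the members took 0.944% to 1.20% of the counts in the GFP libraries, 0.683% to 0.831% in Olig2 and 0.622% to 0.754% in Olig3. Their summed scaled level was 9409.7 ± 1052 CPM in GFP, 8302 ± 686 CPM in Olig2 and 7309 ± 955 CPM in Olig3 (mean ± SD, n = 3 each). These scaled sums overlapped between GFP and Olig2. In pools of picked cells, fewer cells of a type and less RNA in each cell cannot be told apart.

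Markers of other retinal cells differed along with these counts. Summed Müller glia markers (12 genes) stood at 4220.2 to 9167 CPM in GFP, 3283 to 6134 CPM in Olig2 and 932 to 3942 CPM in Olig3, and astrocyte markers (5 genes) at 118 to 199, 15.1 to 31.0 and 1.61 to 37.8 CPM. For both glial lists the Olig3 libraries lay below all GFP libraries. Cone markers (11 genes) stood at 872 to 1828, 1626 to 4336 and 5695 to 7610.0 CPM and bipolar cell markers (14 genes) at 984 to 1038, 1647 to 2078 and 1719 to 2362 CPM, with the Olig3 libraries above all GFP libraries for both. In Olig3 against GFP, 11 of 12 Müller and 3 of 3 tested astrocyte markers had negative log2 changes, and 11 of 11 cone and 13 of 14 bipolar markers positive ones. Over all tested genes, 58.3% had negative log2 changes in this comparison. The members lower in Olig3 include Cfl1, Pfn1, Actb, Stmn1 and Marcks, which many cell types express, and the part of these other cells in the results was not tested.

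The lower values in Olig3 were concentrated in libraries 1 and 3, the ones with the fewest detected genes. Of the 15 members that were lower in Olig3 at an unadjusted p under 0.05, 12 had their highest Olig3 value in library 2. Among all 43 members the number was 28. These rankings use scaled values, with TMM factors of 1.06, 0.749 and 1.16 in Olig3 libraries 1, 2 and 3. Without libraries 1 and 3, which leaves only library 2 in Olig3, the median log2 change against GFP was -0.20, beside 0.049 for all tested genes. Without library 1 or without library 3, 11 members each were at an unadjusted p under 0.05 against GFP. All were lower, and they made up 25.6% against 10.6% and 10.7% of all tested genes. Without library 2, edgeR called 7 members lower (adjusted p under 0.05): Tubb6, Stmn1, Stmn2, Gap43, Basp1, Cfl1 and Pfn1. In that fit the calls over all tested genes numbered 505 (2.98%), against 16.3% of the members. Ganglion markers summed to 246 and 218 CPM in Olig3 libraries 1 and 3 and to 473 CPM in library 2, and their part in these differences was not tested. Across the 43 genes, 14 values in Olig3, 2 in Olig2 and 0 in GFP were at or under 3 counts.

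**Figure D1:**
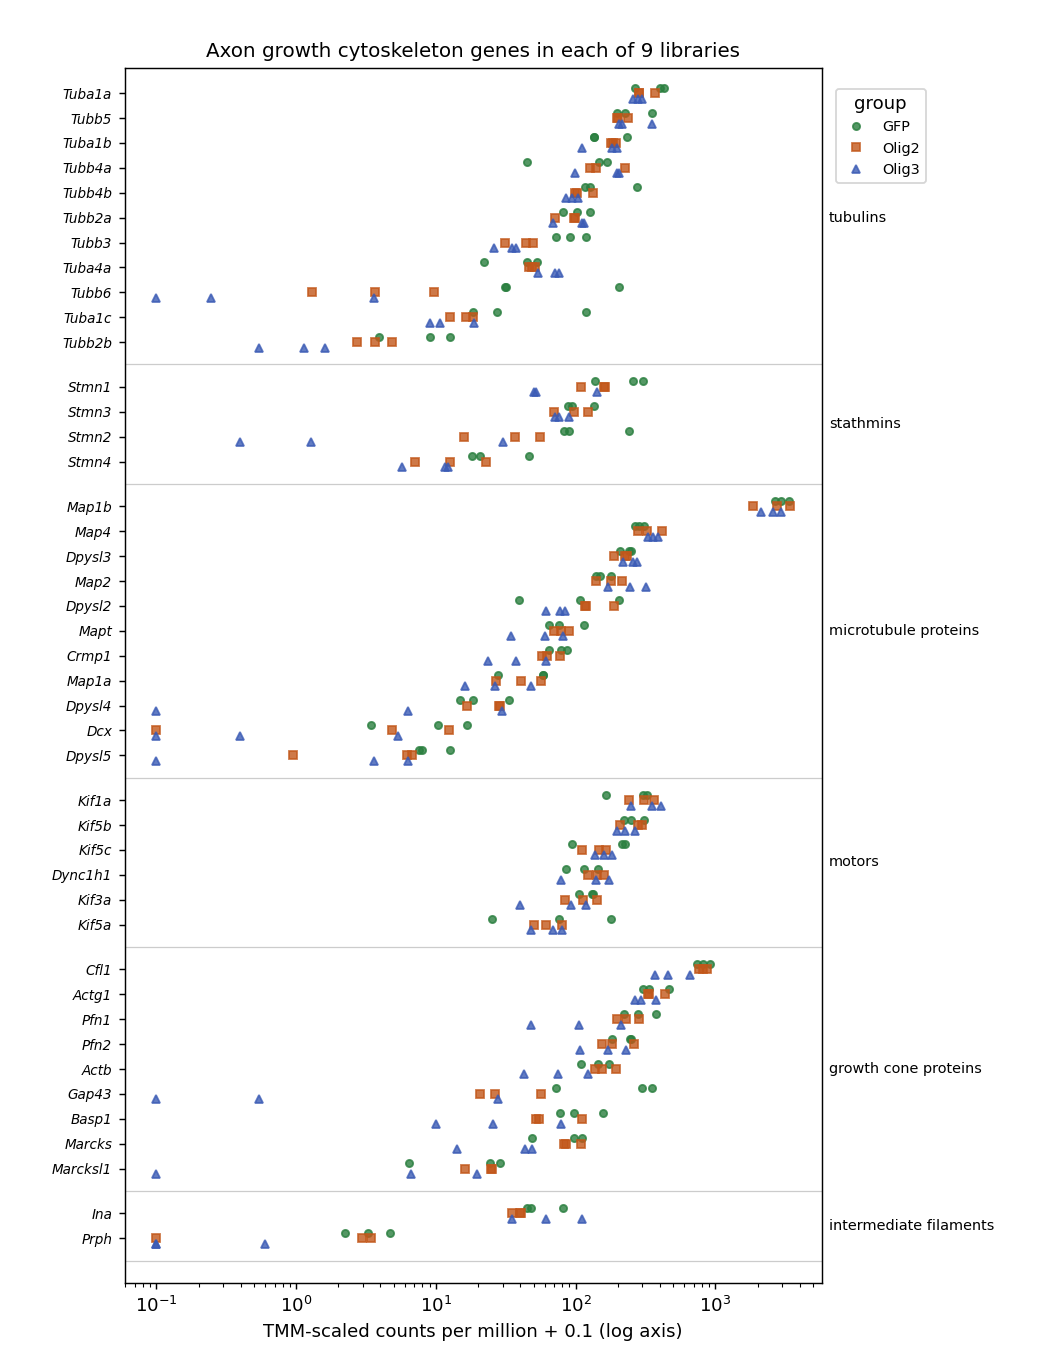
Level of each of 43 genes in each of 9 libraries, as CPM with library-scaling factors plus an offset of 0.1 on a log axis; genes are ordered by mean level within each role, and points are single libraries coloured by group. For Tubb3 all Olig2 and Olig3 libraries lie to the left of all GFP libraries, and for Gap43, Stmn2 and Tubb6 single Olig3 libraries reach the left edge, where counts are near or at 0.

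**Figure D2:**
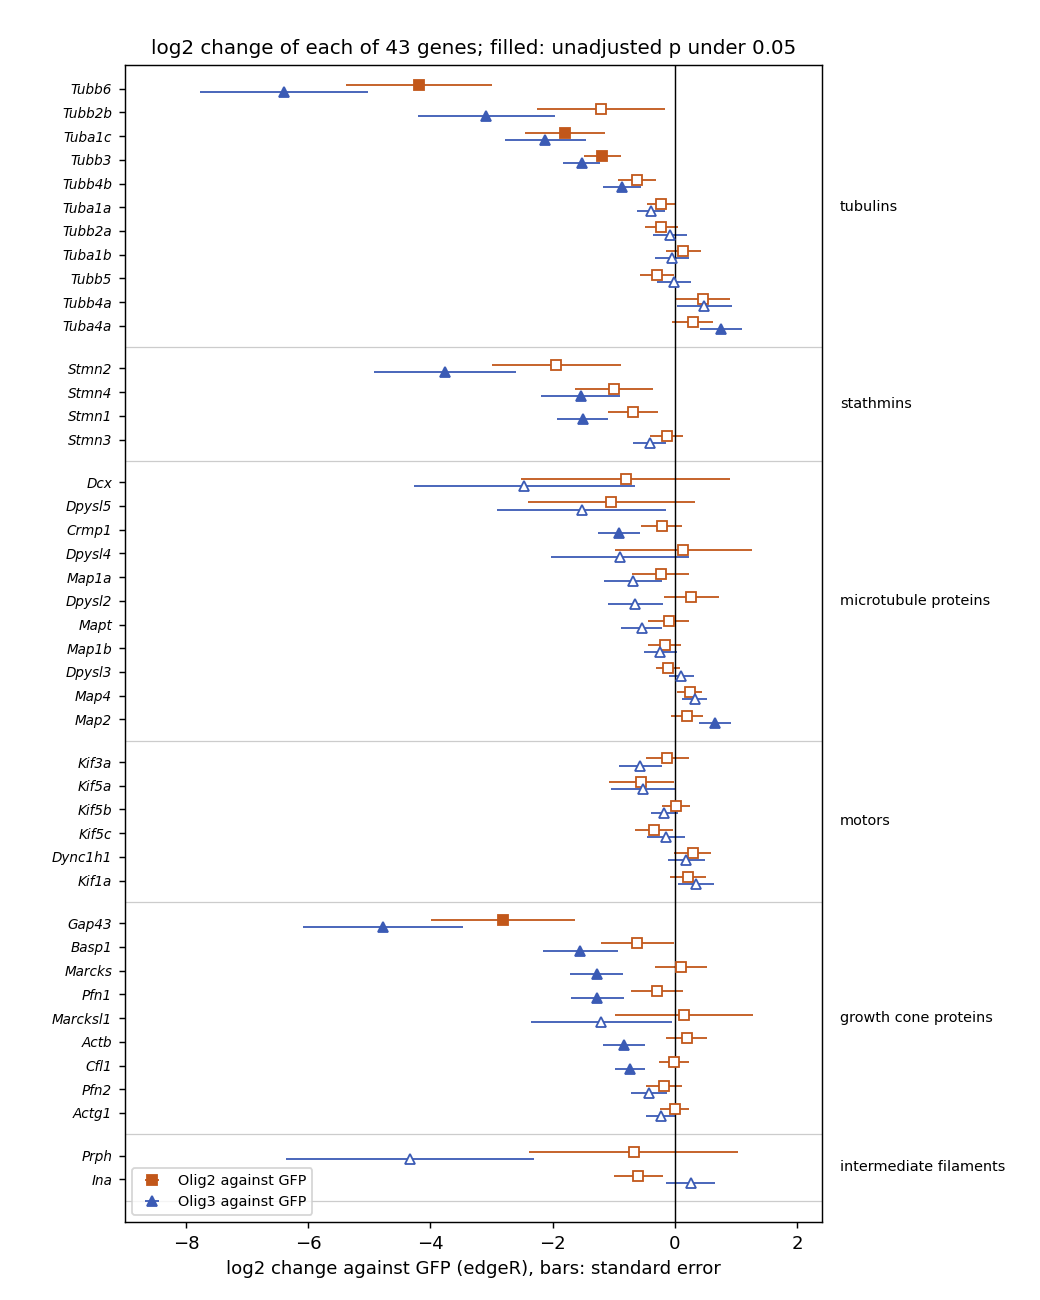
edgeR log2 change against GFP for each of 43 genes, with its standard error as a bar, for Olig2 (squares) and Olig3 (triangles); filled symbols mark an unadjusted p under 0.05. Most filled symbols are tubulins, stathmins and growth cone proteins on the left of 0, none is a motor, and the filled symbols on the right are Tuba4a and Map2.

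Among the tubulins, 5 of 11 were lower and 1 higher in Olig3 than in GFP at an unadjusted p under 0.05, and 3 of 11 were lower in Olig2. Over all tested genes, 6.37% were lower and 5.76% higher in Olig3, and 2.08% were lower in Olig2. Tubb3, the neuron-specific β-tubulin (chr8:123411424-123422015), held the smallest p of all members in both comparisons. Tubb3 stood at 119, 91.5 and 72.4 CPM in the GFP libraries, 49.2, 43.9 and 31.0 CPM in the Olig2 libraries and 37.0, 26.0 and 34.9 CPM in the Olig3 libraries. Every Olig2 and every Olig3 library lay below the lowest GFP library, and Olig2 and Olig3 overlapped each other. The means were 94.3 ± 23.3, 41.4 ± 9.35 and 32.6 ± 5.84 CPM (SD, n = 3 each), which made Tubb3 2.28-fold lower in Olig2 and 2.89-fold lower in Olig3. The edgeR test gave a log2 change of -1.19 (SE 0.30, adjusted p = 0.452) for Olig2. For Olig3 it gave -1.53 (SE 0.31, adjusted p = 0.0799), so neither difference passed the adjusted threshold in this fit. With DESeq2 the adjusted p of Tubb3 was 0.00124 for Olig3 and 0.0657 for Olig2. Of 20 refits for Olig3, 18 stayed on the same side of the threshold as the main fit.

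Among the 15 lower genes, Tubb3 was the one whose lowest Olig3 value came from library 2. Its level in Olig3 spanned 26.0 to 37.0 CPM, with no library near 0. Without Olig3 library 2 its log2 change was -1.39, and without libraries 1 and 3 it was -1.84. Beside these values, the ganglion marker sum was 2.78-fold lower in Olig2 and 3.18-fold lower in Olig3 than in GFP by group means. The median log2 change of the 16 tested ganglion markers was -0.96 for Olig2 and -2.24 for Olig3. The part of the ganglion markers in the Tubb3 values was not tested.

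Tubb6 is a β-tubulin found in many cell types and encoded on chromosome 18. Tubb6 stood at 30.8, 31.5 and 205 CPM in the GFP libraries, 9.56, 1.19 and 3.59 CPM in the Olig2 libraries and 0.147, 3.50 and 0 CPM in the Olig3 libraries. GFP library 3 stood far above the other GFP libraries, and every Olig library lay below every GFP library. The edgeR log2 change was -4.18 (SE 1.19, adjusted p = 0.590) for Olig2 and -6.39 (SE 1.38, adjusted p = 0.105) for Olig3. Without GFP library 3 the values were -2.69 and -4.74, and without Olig3 library 2 the value for Olig3 was -9.91, with 1 count left in the group.

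The same GFP library was also the highest of all 9 for the α-tubulin Tuba1c and the broadly expressed β-tubulin Tubb4b. Tuba1c stood at 18.3, 27.2 and 119 CPM in the GFP libraries, 16.3, 18.4 and 12.6 CPM in the Olig2 libraries and 10.6, 18.5 and 8.95 CPM in the Olig3 libraries. The groups overlapped between GFP and Olig2 and between GFP and Olig3 because GFP library 1 lay among the Olig values. Its log2 change was -1.80 (SE 0.66, adjusted p = 0.846) for Olig2 and -2.12 (SE 0.67, adjusted p = 0.261) for Olig3, and -0.53 and -0.84 without GFP library 3. Tubb4b stood at 117, 126 and 273 CPM in the GFP libraries, 133, 99.4 and 103 CPM in the Olig2 libraries and 84.9, 104 and 93.6 CPM in the Olig3 libraries. Its Olig3 libraries all lay below GFP, with a log2 change of -0.87 (SE 0.32, adjusted p = 0.311) that was -0.36 without GFP library 3. In that library the summed Müller glia markers (12 genes) stood at 9167 CPM against 4220.2 and 4395 CPM in the other GFP libraries, and their part in these tubulin values was not tested.

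Tubb2b, a β-tubulin of developing neurons, was scarce. Tubb2b stood at 8.98, 3.81 and 12.6 CPM in the GFP libraries, 4.71, 2.62 and 3.59 CPM in the Olig2 libraries and 1.03, 1.50 and 0.440 CPM in the Olig3 libraries. All Olig3 libraries lay below all GFP libraries, while Olig2 overlapped GFP. For Olig3 the log2 change was -3.08 (SE 1.12, adjusted p = 0.312).

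Tuba4a was the tubulin higher in Olig3 at an unadjusted p under 0.05. Tuba4a stood at 52.8, 44.7 and 21.8 CPM in the GFP libraries, 50.8, 46.5 and 48.4 CPM in the Olig2 libraries and 75.7, 54.0 and 71.4 CPM in the Olig3 libraries. The lowest Olig3 library lay just above the highest GFP library, and the Olig2 libraries lay within the GFP range. The log2 change for Olig3 was 0.75 (SE 0.34, adjusted p = 0.400), or 0.46 without GFP library 3. Of its exon bases, 37.3% overlap Stk16 on the opposite strand, and the sources used here do not say whether the counting used strand.

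Tuba1a, the main α-tubulin of growing neurons (chr15:98949837-98953703), was the most abundant tubulin at 177 CPM per kilobase of exon over all libraries. Tuba1a stood at 431, 399 and 266 CPM in the GFP libraries, 366, 284 and 282 CPM in the Olig2 libraries and 300.3, 278 and 258 CPM in the Olig3 libraries. The groups overlapped, and the log2 changes were -0.23 (SE 0.23, adjusted p = 1.00) for Olig2 and -0.39 (SE 0.23, adjusted p = 0.537) for Olig3. The remaining tubulins, Tuba1b, Tubb2a, Tubb4a and Tubb5, had log2 changes from -0.08 to 0.48 for Olig3 and none at an unadjusted p under 0.05 in any comparison.

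The makeup of the tubulin pool was read as each isotype's share of its family's level per kilobase within a library, which does not depend on library scaling. Tubb3 made up 19.6, 14.2 and 8.92% of β-tubulin in the GFP libraries, 8.32, 10.0 and 6.31% in Olig2 and 6.94, 6.40 and 5.76% in Olig3. On this scale GFP library 3 fell inside the range of the Olig2 libraries, so GFP and Olig2 overlapped, while all Olig3 libraries lay below GFP. Tubb6 made up 3.90, 3.74 and 19.3% in GFP, 1.24, 0.209 and 0.559% in Olig2 and 0.0212, 0.660 and 0% in Olig3. Among α-tubulins Tuba1c took 2.39, 3.74 and 15.8% in GFP, and its highest share in the Olig groups was 2.86%.

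**Figure D3:**
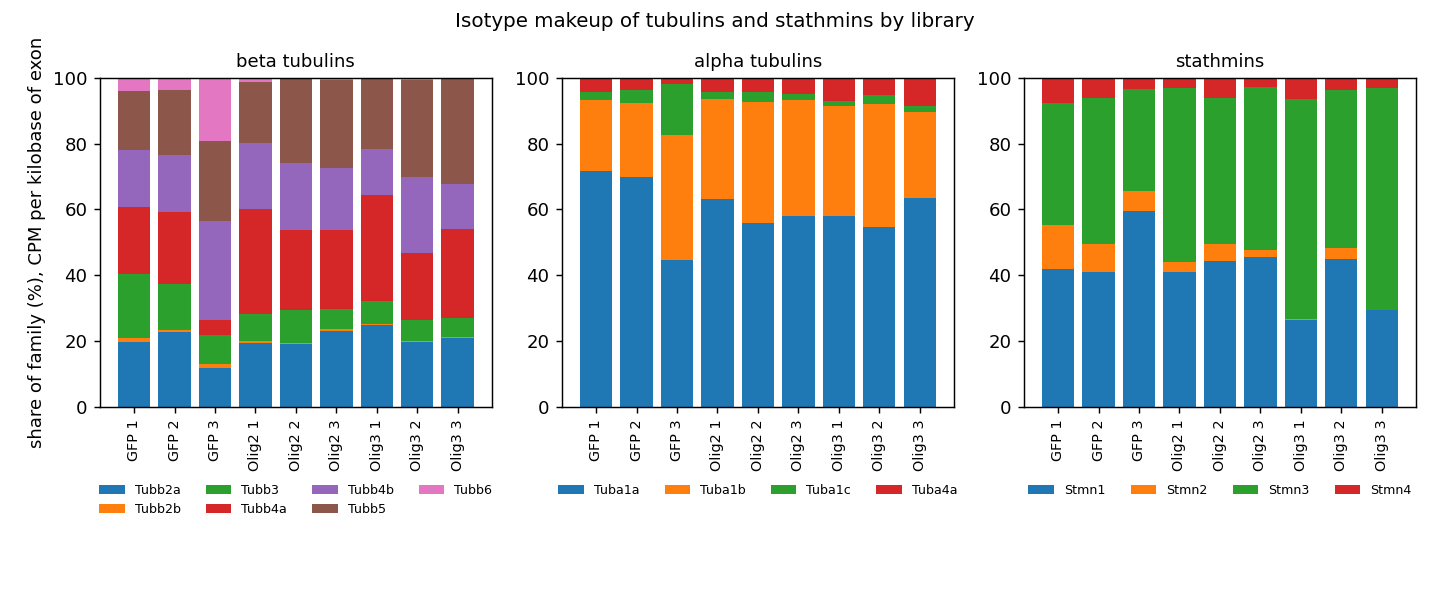
Share of each isotype in its family's summed level (CPM per kilobase of exon, in percent) in each of 9 libraries, for β-tubulins, α-tubulins and stathmins. GFP library 3 holds the largest Tubb6 and Tuba1c segments of all libraries, and Stmn3 takes its largest segments of the stathmins in Olig3 libraries 1 and 3.

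The stathmins bind tubulin dimers and promote microtubule disassembly. At an unadjusted p under 0.05, 3 of 4 stathmins were lower in Olig3 than in GFP (6.37% of all tested genes), against none in Olig2 (2.08%). Their summed level was 502 ± 175 CPM in GFP, 289.7 ± 76.0 CPM in Olig2 and 181 ± 80.4 CPM in Olig3 (mean ± SD, n = 3 each). Stmn2 (also called SCG10; chr3:8509360-8561606) is a neuron-specific stathmin of growth cones and a marker of injured, regrowing axons. Stmn2 stood at 239.7, 82.0 and 89.8 CPM in the GFP libraries, 36.5, 55.3 and 15.8 CPM in the Olig2 libraries and 1.18, 30.3 and 0.293 CPM in the Olig3 libraries. Every Olig library lay below every GFP library, and Olig3 libraries 1 and 3 were at 8 and 2 counts while library 2 was within the range of Olig2. The log2 change was -1.94 (SE 1.06, adjusted p = 1.00) for Olig2 and -3.76 (SE 1.16, adjusted p = 0.254) for Olig3. Without GFP library 1 the value for Olig2 was -1.26. For Olig3 it was -7.50 without Olig3 library 2, which leaves few counts in the group, and -2.16 without libraries 1 and 3.

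Stmn1, the stathmin shared by many dividing and growing cells, was lower in Olig3 libraries 1 and 3. Stmn1 stood at 256, 136 and 302 CPM in the GFP libraries, 159.7, 162 and 109 CPM in the Olig2 libraries and 50.3, 142 and 52.2 CPM in the Olig3 libraries. Olig3 library 2 lay above GFP library 2, so the groups overlapped, and the log2 change was -1.51 (SE 0.42, adjusted p = 0.200). Stmn4 stood at 46.1, 20.6 and 18.1 CPM in the GFP libraries, 12.4, 22.9 and 6.997 CPM in the Olig2 libraries and 12.1, 11.5 and 5.57 CPM in the Olig3 libraries. Stmn4, a neuronal stathmin, had all Olig3 libraries below GFP, with a log2 change of -1.54 (SE 0.65, adjusted p = 0.371) that was -0.99 without GFP library 1. Stmn3 had the highest stathmin level per length over all libraries, 82.2 CPM per kilobase, but in GFP alone Stmn1 (121) was above Stmn3 (92.6 CPM per kilobase). Stmn3 stood at 135, 87.6 and 93.3 CPM in the GFP libraries, 122, 96.3 and 70.2 CPM in the Olig2 libraries and 75.9, 89.5 and 71.3 CPM in the Olig3 libraries. Its groups overlapped, with a log2 change of -0.41 (SE 0.27, adjusted p = 0.582) for Olig3. As a share of all stathmins, Stmn2 lay between 6.05% and 13.4% in GFP, and stood at 3.21, 5.17 and 2.26% in Olig2 and 0.212, 3.29 and 0.0564% in Olig3. The shares of Stmn2 did not overlap between GFP and either Olig group.

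Of the 11 microtubule proteins, 1 was lower and 1 higher in Olig3 than in GFP at an unadjusted p under 0.05, and none in Olig2. Over all tested genes, 6.37% were lower and 5.76% higher in Olig3. Map1b, a microtubule-associated protein of growing axons, had the highest CPM of all members and, at 173 CPM per kilobase, the highest level per length of its group. Map1b stood at 3378, 2676 and 2943 CPM in the GFP libraries, 1868, 3409 and 2742 CPM in the Olig2 libraries and 2594, 2929 and 2108 CPM in the Olig3 libraries. The 3 groups overlapped, and the log2 changes were -0.17 (SE 0.27, adjusted p = 1.00) for Olig2 and -0.24 (SE 0.27, adjusted p = 0.768) for Olig3.

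Map2, the microtubule protein of dendrites and cell bodies, joined Tuba4a as the members higher in Olig3 at an unadjusted p under 0.05. Map2 stood at 179, 139 and 149 CPM in the GFP libraries, 216, 141 and 179.6 CPM in the Olig2 libraries and 243, 170.3 and 319 CPM in the Olig3 libraries. Olig3 library 2 lay below GFP library 1, so the groups overlapped, and the log2 change was 0.65 (SE 0.26, adjusted p = 0.357), or 0.41 without Olig3 library 3. Crmp1, a collapsin response mediator that carries guidance signals to microtubules, went the other way. Crmp1 stood at 77.8, 86.8 and 64.0 CPM in the GFP libraries, 76.6, 62.5 and 57.6 CPM in the Olig2 libraries and 37.3, 61.3 and 23.5 CPM in the Olig3 libraries. All Olig3 libraries lay below all GFP libraries, with a log2 change of -0.91 (SE 0.34, adjusted p = 0.326).

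Dcx, doublecortin, marks young migrating neurons and binds microtubules in their growing tips. Dcx stood at 10.2, 16.5 and 3.35 CPM in the GFP libraries, 0, 4.77 and 12.4 CPM in the Olig2 libraries and 0.295, 5.25 and 0 CPM in the Olig3 libraries. Values were scattered within each group, and the groups overlapped between GFP and Olig2 and between GFP and Olig3. The log2 changes were -0.81 (SE 1.71, adjusted p = 1.00) and -2.47 (SE 1.81, adjusted p = 0.630), so 0 lay within 1.5 standard errors of both. Without GFP library 2 the value for Olig2 was -0.24, and without Olig3 library 2 the value for Olig3 was -5.91. The other 7 of this group (Map1a, Map4, Mapt, Dpysl2, Dpysl3, Dpysl4 and Dpysl5) had log2 changes for Olig3 against GFP from -1.52 to 0.32, none at an unadjusted p under 0.05.

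Of the transport motors, 0 of 6 were at an unadjusted p under 0.05 in any comparison (4.68%, 12.1% and 5.12% of all tested genes). Their summed level was 1029 ± 290.0 CPM in GFP, 1023 ± 90.8 CPM in Olig2 and 1002 ± 171 CPM in Olig3 (mean ± SD, n = 3 each). Kif1a, the kinesin that carries synaptic vesicle precursors and dense core vesicles, stood at 32.3 CPM per kilobase over all libraries, the highest mean of the motors. In GFP alone Kif3a (34.2) and Kif5b (32.3) were above Kif1a (28.2 CPM per kilobase), and in Olig2 Kif5b and Kif1a were nearly level. Kif1a stood at 324, 301 and 164 CPM in the GFP libraries, 310.3, 364 and 239.5 CPM in the Olig2 libraries and 349, 409 and 249 CPM in the Olig3 libraries. The groups overlapped, and the log2 changes were 0.21 (SE 0.29, adjusted p = 1.00) for Olig2 and 0.35 (SE 0.29, adjusted p = 0.680) for Olig3. The kinesin-1 heavy chains Kif5a, Kif5b and Kif5c, the kinesin-2 subunit Kif3a and the dynein heavy chain Dync1h1 had log2 changes for Olig3 from -0.57 to 0.18, with standard errors of 0.23 to 0.53. These errors do not show that the motors were alike in the 3 groups.

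Among the growth cone proteins, 6 of 9 were lower in Olig3 than in GFP at an unadjusted p under 0.05, against 6.37% of all tested genes. All 9 had negative log2 changes, as did 58.3% of all tested genes. In Olig2 against GFP, 1 of 9 was lower, against 2.08% of all tested genes. Gap43 (chr16:42248442-42340651) encodes GAP-43, a membrane-bound protein of growth cones that rises in neurons regrowing an axon. Gap43 stood at 349, 72.2 and 297 CPM in the GFP libraries, 20.5, 56.0 and 26.4 CPM in the Olig2 libraries and 0.442, 27.5 and 0 CPM in the Olig3 libraries. Every Olig2 and Olig3 library lay below every GFP library, and Olig3 library 3 had 0 counts, library 1 had 3 and library 2 lay within the Olig2 range. The means were 239 ± 147, 34.3 ± 19.0 and 9.32 ± 15.8 CPM (SD, n = 3 each), or 6.97-fold lower in Olig2 and 25.7-fold lower in Olig3. The edgeR log2 change was -2.81 (SE 1.18, adjusted p = 0.979) for Olig2 and -4.77 (SE 1.31, adjusted p = 0.193) for Olig3. For Olig3 it was -9.96 without library 2, which leaves 3 counts in the group and makes the value depend on the fit's prior count, and -3.10 without libraries 1 and 3.

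Basp1 and Marcks encode membrane-bound proteins that, with GAP-43, hold the phospholipid PIP2 at the growth cone membrane. Basp1 stood at 158, 77.2 and 96.8 CPM in the GFP libraries, 51.9, 111 and 54.5 CPM in the Olig2 libraries and 25.5, 78.8 and 9.83 CPM in the Olig3 libraries. Olig3 library 2 lay above GFP library 2, and the log2 change for Olig3 was -1.55 (SE 0.61, adjusted p = 0.347), or -2.64 without Olig3 library 2. Marcks stood at 97.1, 48.6 and 111 CPM in the GFP libraries, 85.04, 82.7 and 109 CPM in the Olig2 libraries and 48.5, 43.3 and 14.1 CPM in the Olig3 libraries. All Olig3 libraries lay below the lowest GFP library, library 1 by a narrow margin, and the log2 change for Olig3 was -1.28 (SE 0.44, adjusted p = 0.290). Marcksl1, a relative of Marcks, ranged from 0 to 28.6 CPM, with a log2 change of -1.20 (SE 1.15, adjusted p = 0.723) for Olig3.

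Cfl1, Pfn1 and Actb, genes of actin and its turnover, had their lowest values of all 9 libraries in Olig3 libraries 1 and 3. Cfl1, cofilin, which severs actin filaments, had the highest level per length of all 43, 250.2 CPM per kilobase. Cfl1 stood at 915, 738 and 818 CPM in the GFP libraries, 758, 808 and 877 CPM in the Olig2 libraries and 369, 662 and 458 CPM in the Olig3 libraries. GFP and Olig2 overlapped, and all Olig3 libraries lay below both, with log2 changes of -0.02 (SE 0.24, adjusted p = 1.00) for Olig2 and -0.73 (SE 0.24, adjusted p = 0.270) for Olig3. Pfn1 stood at 278, 223 and 374 CPM in the GFP libraries, 198, 229.8 and 285 CPM in the Olig2 libraries and 105, 212 and 47.8 CPM in the Olig3 libraries. Profilin 1, which feeds actin monomers to growing filaments, had its Olig3 libraries below all GFP libraries and a log2 change of -1.27 (SE 0.43, adjusted p = 0.286) that was -1.93 without Olig3 library 2. Actb stood at 144, 108 and 173 CPM in the GFP libraries, 138, 193 and 154 CPM in the Olig2 libraries and 74.0, 122 and 42.2 CPM in the Olig3 libraries. Here Olig3 library 2 lay above GFP library 2, and the log2 change of β-actin was -0.84 (SE 0.35, adjusted p = 0.364), ranging from -1.28 without Olig3 library 2 to -0.53 without Olig3 library 3. The neuronal profilin Pfn2 and γ-actin, Actg1, had log2 changes of -0.43 and -0.23 for Olig3, neither at an unadjusted p under 0.05.

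The intermediate filament genes had no member at an unadjusted p under 0.05. Ina, α-internexin, stood at 17.1 CPM per kilobase. Ina stood at 45.0, 81.5 and 47.7 CPM in the GFP libraries, 40.4, 34.8 and 39.8 CPM in the Olig2 libraries and 35.0, 61.5 and 111 CPM in the Olig3 libraries. The Olig2 libraries all lay below GFP, and Olig3 library 3 was the highest of all 9, with a log2 change of -0.60 (SE 0.40, adjusted p = 1.00) for Olig2 and 0.26 (SE 0.40, adjusted p = 0.841) for Olig3. Prph, peripherin, had 21, 36 and 16 counts in GFP, 0, 14 and 16 in Olig2 and 0, 2 and 0 in Olig3. All Olig3 libraries lay below GFP, with a log2 change of -4.33 (SE 2.03, adjusted p = 0.427) that rests on few counts. Over the 43 genes, level per length ran from 250.2 CPM per kilobase for Cfl1 down to 0.463 for Dcx.

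The 2 Olig groups were then compared with each other. At an unadjusted p under 0.05, 4 members were lower and 0 higher in Olig3 than in Olig2, or 9.30% against 5.12% of all tested genes (3.05% lower). All 4 were growth cone proteins: Marcks with a log2 change of -1.39 (SE 0.44, adjusted p = 0.865), Cfl1 with -0.71 (SE 0.24, adjusted p = 0.918), Pfn1 with -0.97 (SE 0.43, adjusted p = 0.933) and Actb with -1.03 (SE 0.35, adjusted p = 0.918). For Pfn1 the value was -1.64 without Olig3 library 2 and -0.59 without Olig3 library 3. Lymphocyte markers (10 genes) summed to 2897 to 7963 CPM in Olig2, against 29.2 to 63.4 CPM in Olig3 and 11.4 to 91.5 CPM in GFP. Lens markers (15 genes) summed to 97.6 to 3762 CPM in GFP, 2.71 to 8.97 CPM in Olig2 and 16.3 to 475 CPM in Olig3. The part of such cells in the member values was not tested. Over all members, the libraries did not overlap for 5 lower and 1 higher, or 14.0% against 13.1% of all tested genes (8.69% lower). The median log2 change of the 43 was -0.35, beside -0.23 for all tested genes. Without Olig3 libraries 1 and 3, which leaves only library 2 in Olig3, the median was -0.018, beside 0.0063 for all tested genes. Without Olig3 library 2, 14 members were at an unadjusted p under 0.05, or 32.6% against 17.9% of all tested genes. Tubb3, Stmn2 and Gap43 overlapped between the Olig groups, with adjusted p-values of 0.934, 0.933 and 0.933.

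**Figure D4:**
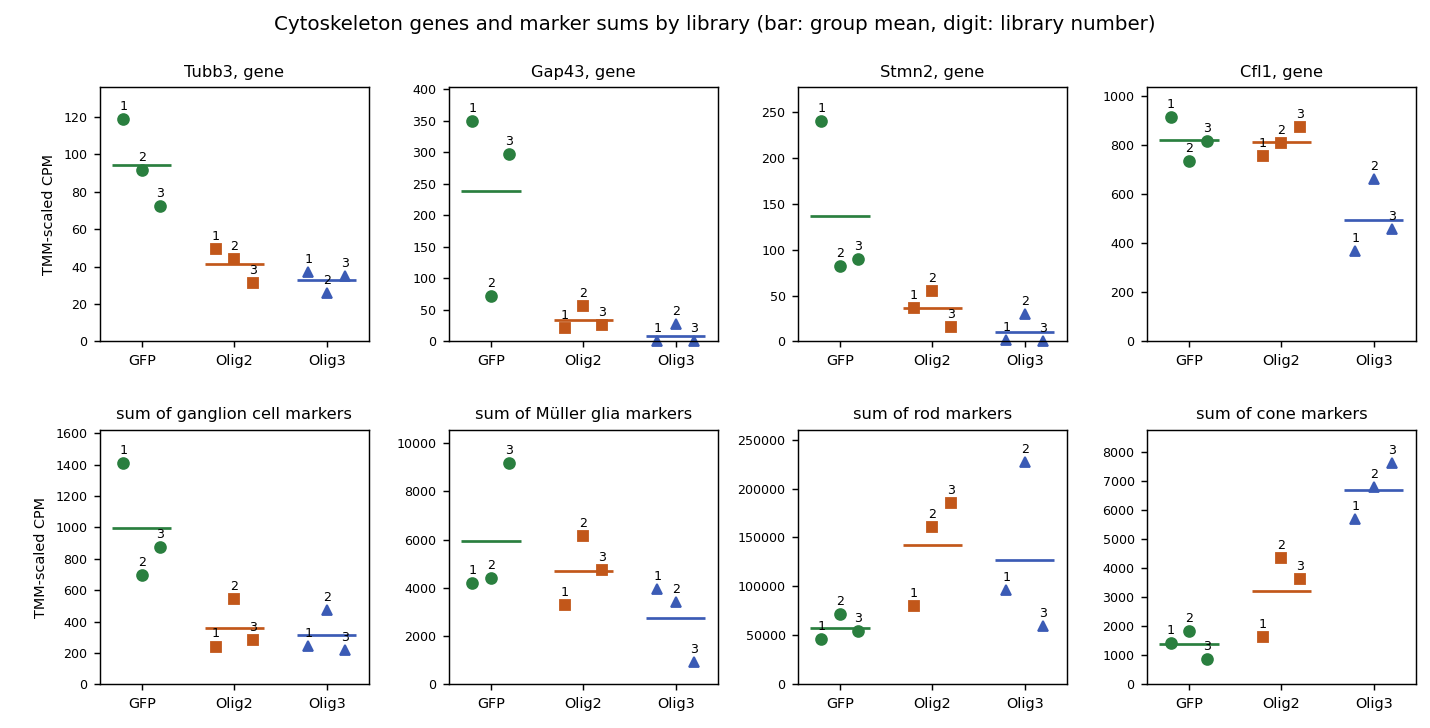
TMM-scaled CPM of Tubb3, Gap43, Stmn2 and Cfl1 (top) and of the summed ganglion cell, Müller glia, rod and cone markers (bottom) in each library, with library numbers beside the points and group means as bars. Tubb3, Gap43, Stmn2 and the ganglion sum lie below every GFP library in all Olig libraries, and for Gap43, Stmn2 and Cfl1 Olig3 library 2 is the highest of its group.

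A wider set of 123 genes of tubulin modification, microtubule ends, transport, growth cone actin and neurofilaments was counted beside the 43. Of its 119 tested genes none was called in any comparison. Vim, an intermediate filament gene kept among the Müller glia markers instead, was called lower in Olig3 than in GFP (edgeR adjusted p = 0.0363). At an unadjusted p under 0.05, 2 of the 119 were higher and 11 lower in Olig2 than in GFP, and 8 higher and 16 lower in Olig3. These are 10.9% against 4.68% of all tested genes for Olig2 and 20.2% against 12.1% for Olig3. Agtpbp1, which trims glutamates from the tails of tubulin, had the smallest p of the wider set in both. Agtpbp1 stood at 409, 478 and 404 CPM in the GFP libraries, 243, 153 and 256 CPM in the Olig2 libraries and 111, 192 and 168 CPM in the Olig3 libraries. Every Olig library lay below every GFP library, and the log2 change was -0.98 (SE 0.26, adjusted p = 0.511) for Olig2 and -1.45 (SE 0.27, adjusted p = 0.0622) for Olig3. Of the other lists, the smallest p for Olig3 belonged to Mapre1, a protein of growing microtubule ends, with a log2 change of -1.36 (SE 0.30, adjusted p = 0.109), to Kif3c, a kinesin-2 motor, with -1.07 (SE 0.37, adjusted p = 0.295), and to Cttn, the actin-binding cortactin, with -1.60 (SE 0.36, adjusted p = 0.111). Of the 4 neurofilament and nestin genes, 2 were lower in each Olig group at an unadjusted p under 0.05. Of all tested genes, 2.08% were lower in Olig2 and 6.37% in Olig3. Nefl stood at 321, 154 and 189 CPM in the GFP libraries, 23.8, 93.2 and 72.7 CPM in the Olig2 libraries and 50.3, 93.0 and 19.2 CPM in the Olig3 libraries. Nefl, the light neurofilament, is also one of the ganglion markers, and its log2 change was -1.81 (SE 0.57, adjusted p = 0.678) for Olig2 and -2.04 (SE 0.58, adjusted p = 0.206) for Olig3.

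Olig2 and Olig3 are known to bind E-boxes, spelled CANNTG, so RefSeq promoter windows (GRCm38.p6, from 250 bases before to 50 after a transcription start) were searched for those letters, which read the same on both strands. Windows were found for 29 of the 43 genes, 33 windows in all, and 23 of them (69.7%) held an E-box, against 72.3% of 32851 promoter windows. The share in the cytoskeleton genes was thus near that of all promoters. The window of Tubb3, the gene with the smallest p, is shown beside a window of the motor gene Kif1a, with E-boxes in capitals. That Kif1a window was picked as the one with the most matches of the 33, 5 against a median of 1. The other Kif1a window, at the 5′ end of the gene model (chr1:93101825-93102124), held 1 match and is not shown.
Tubb3, chr8:123411303-123411602, plus strand: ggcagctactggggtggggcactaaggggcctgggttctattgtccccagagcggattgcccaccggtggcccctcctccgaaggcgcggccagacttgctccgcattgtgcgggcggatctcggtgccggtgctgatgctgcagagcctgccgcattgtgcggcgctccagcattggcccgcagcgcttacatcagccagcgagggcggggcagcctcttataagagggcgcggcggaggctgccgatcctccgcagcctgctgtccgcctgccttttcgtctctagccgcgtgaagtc
Kif1a, chr1:93082431-93082730, minus strand: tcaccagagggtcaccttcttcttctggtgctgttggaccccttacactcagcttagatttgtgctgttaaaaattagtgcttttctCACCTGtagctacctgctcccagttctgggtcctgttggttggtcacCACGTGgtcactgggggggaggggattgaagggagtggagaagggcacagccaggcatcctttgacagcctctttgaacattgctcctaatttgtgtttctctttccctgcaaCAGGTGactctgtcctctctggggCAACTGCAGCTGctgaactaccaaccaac
The Tubb3 window held no match, which says only that these letters are not in these 300 bases. Binding was not measured here, and a match is a description of the letters.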

How the data were processed

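Poly-A RNA from picked retinal ganglion cells was amplified with a SMART-Seq HT kit (20 PCR cycles, per the labels' protocols) and sequenced, with 3 libraries for each of 3 groups. The authors deposited raw read counts per gene, and the submitters' processing notes name FastQC, HISAT2, HTSeq and build mm10. Not given in the sources used here: versions, annotation, strand setting and filters. Totals ran from 5355691 to 6979851 counts per library, which sets the precision of low genes. The 43 genes and all lists were chosen with earlier results of these data known.

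Counts were tested in R 4.3.3 with edgeR 4.0.16 (TMM scaling, filterByExpr, quasi-likelihood F test with 1 mean per group, fitted to the 9 libraries together), with Benjamini-Hochberg adjustment over 15609 of 50764 genes and a threshold of 0.05. Standard errors are the log2 change divided by the square root of F. Levels are TMM-scaled CPM, and medians use log2 CPM with a prior count of 2. Levels per length use the GENCODE M21 exon union. Values per library are given for members at an unadjusted p under 0.05 in any comparison, the most abundant per length of each role, and Tubb3, Gap43, Stmn2, Dcx and Tuba1a. Of the wider lists, a gene is named if it was called or had the smallest p of its list. Coding ends of β-tubulins were aligned pairwise, and shared windows are 50-base stretches also present in another gene's transcript. The test was checked on data simulated with a spread between libraries (dispersion) of 0.05, lower than the 0.532 estimated here. That check does not show how many changes the test would find at the spread of these data. Alternatives were DESeq2 1.42.0, limma-voom (limma 3.58.1), other scaling factors and filters, only the groups compared, a replicate block, leaving out each library and, added after seeing the data, library totals without scaling factors, leaving out both Olig3 libraries with the fewest detected genes, and leaving out the 3 libraries richest in Malat1.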

Additional observations from a re-analysis of the deposited data

How the results depend on the processing

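With 3 libraries a group and pools of few cells, low genes are limited by depth, and 14 values of the 43 genes in Olig3 were at or under 3 counts. Of 719 refits of 36 gene results, 685 kept their direction and side of the threshold, 27 crossed into it and 7 changed sign. Without a filter on low counts, members called numbered 3 for Olig2 against GFP, 9 with Olig3 against GFP and 4 between both Olig groups, in place of 0 each, while 0.598%, 1.89% and 0.476% of all genes in those fits were called (members 6.98%, 20.9% and 9.30%), and 7 members (Olig2 against GFP) and 11 (Olig3 against Olig2) were at an unadjusted p under 0.05, in place of 4 each (16.3% and 25.6%, against 4.44% and 5.44% of all genes). DESeq2 called 5 members for Olig3 against GFP (11.6% against 3.22% of all genes) and put 2 at an unadjusted p under 0.05 for Olig2 against GFP (4.65% against 5.75%), and limma-voom put 10 there for Olig3 against Olig2 (23.3% against 10.9% of all genes). Library totals without scaling factors put 9 members there for Olig2 against GFP (20.9% against 6.33% of all genes) and moved the median log2 change to -0.58. That scaling also moved the median of all tested genes, from 0.06 to -0.31 for Olig2 and from -0.18 to -0.42 for Olig3. Without both Olig3 libraries with the fewest detected genes, which leaves only library 2 in Olig3, the medians were -0.20 (Olig3 against GFP) and -0.018 (Olig3 against Olig2). Leaving out the 3 libraries richest in Malat1 (Olig2 libraries 2 and 3 and Olig3 library 2) left only library 1 in the Olig2 group. The median log2 change of the members was then -0.87 for Olig3 against GFP, beside -0.40 for all tested genes. For Olig3 against Olig2 it was -0.47, beside -0.20, and for Olig2 against GFP -0.16. The cause of these shifts was not tested.

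Leaving out 1 library at a time, members called ran from 0 to 7 for Olig3 against GFP and from 0 to 2 for Olig3 against Olig2. Members at an unadjusted p under 0.05 ran from 2 to 6 for Olig2 against GFP, from 11 to 23 for Olig3 against GFP and from 3 to 14 for Olig3 against Olig2, where the median ran from -0.60 to -0.23. Without Olig2 library 3 the count for Olig2 against GFP was 2. Sign changes were seen for Olig2 against GFP alone. Over single libraries left out, Stmn3 ran from -0.37 to 0.091 (0.055 with Olig2 library 3 left out), Kif1a from -0.035 to 0.39 and Map1b from -0.37 to 0.0065. With library totals Kif1a was at -0.15. Leaving out the Malat1-rich libraries, with only library 1 left in Olig2, gave 0.22 for Stmn3 and 0.010 for Tuba1a. Genes called over all tested genes ran from 0 to 176, 0 to 556 and 0 to 160 over the alternatives, against 8, 32 and 6.

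The groups share replicate numbers, but same-numbered libraries did not deviate together: correlations of their deviations ran from -0.0634 to 0.113, and 3 of 9 libraries correlated best with their own number. With the number as a replicate block, 0, 0 and 0 members were called and 4, 17 and 6 were at an unadjusted p under 0.05, while genes called over all tested genes numbered 10, 0 and 8.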

Other observations

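Within-family shares of the remaining families, read per kilobase within each library, gave values not covered above. Actb made up 32.0, 24.5 and 27.0% of the 2 cytoplasmic actins in the GFP libraries, 29.5, 36.4 and 26.0% in Olig2 and 20.0, 24.4 and 13.6% in Olig3, where Actg1 made up the rest. Pfn1 made up 62.5, 56.7 and 75.2% of the 2 profilins in GFP, 52.8, 68.6 and 69.8% in Olig2 and 40.4, 64.8 and 39.6% in Olig3, so that in Olig3 libraries 1 and 3 the neuronal profilin Pfn2 was the larger part. Dpysl3, a collapsin response mediator, made up 34.0, 57.8 and 50.02% of its family in GFP, 40.3, 46.7 and 39.2% in Olig2 and 66.2, 56.5 and 59.7% in Olig3. These shares were not tested.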
